A study of Mus musculus with 9 samples.

Results

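The mitogen-activated protein (MAP) kinase cascade and the dual-specificity phosphatases were followed in mouse back skin. The members are the genes whose symbol starts with Mapk, Map2k, Map3k, Map4k, Mapkapk or Dusp followed by a digit, without interacting proteins, opposite-strand transcripts and pseudogenes, and 70 of the 29205 genes of the deposited table met this rule. They are 13 MAP kinases (Mapk), 7 MAP kinase kinases (Map2k), 19 MAP3K genes, 5 MAP4K genes, 3 MAP kinase-activated kinases (Mapkapk) and 23 Dusp genes. Skin came from male BALB/c mice aged 6-8 weeks with shaved and depilated backs, in 3 groups of 3 libraries each. The control group received no imiquimod. The IMQ group received 62.5 mg of 5% imiquimod cream on the back each day for 5 days, where imiquimod is a Toll-like receptor agonist whose cream gives psoriasis-like lesions. The LYS group received the same cream and Longkui Yinxiao Soup (LYS), an herbal decoction. The labels give no LYS dose, and the study's methods name these animals the LYS-High group. All skin was collected on day 13. Nothing in the labels ties a library to its own mouse, so p-values measure the spread between these libraries. The study asked by which mechanisms LYS acts in this psoriasis model.

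A MAP kinase is switched on when a MAP2K phosphorylates a threonine and a tyrosine in its activation loop, and the MAP2K is itself phosphorylated by a MAP3K, many of which lie under MAP4K or small GTPase control. The ERK branch runs from Map2k1 and Map2k2 to ERK kinases such as Mapk3 and carries growth factor signals. The p38 branch runs from Map2k3 and Map2k6 to Mapk11, Mapk12, Mapk13 and Mapk14, the JNK branch runs from Map2k4 and Map2k7 to Mapk8, Mapk9 and Mapk10, and both answer to stress and cytokines. Dusp enzymes of the MAP kinase phosphatase (MKP) type remove both phosphates, and many are induced by the kinases they switch off. RNA levels say nothing of phosphorylation, so the values below are amounts of transcript and not kinase activity.

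Reads counted on genes ranged from 14658645 to 19609878 per library. Levels are given as CPM, counts scaled to library size by TMM in edgeR, and levels of different genes are compared only as FPKM, which also divides by gene length. The RNA of cell type markers differed between the groups, as read from summed CPM of marker lists. The 6 suprabasal keratinocyte markers, all of which rose, summed to 3935 to 6895 CPM in control skin, 29287 to 52198 in IMQ skin and 9635 to 20102 in LYS skin. The neutrophil markers, all 5 tested of which rose in the IMQ group, summed to 34.4 to 83.7, 21097 to 28656 and 5823 to 17304 CPM in the same order. In IMQ skin most of this sum came from S100a8 and S100a9, with means of 11933 and 13797 CPM. Between LYS and IMQ, 4 of the 5 had lower LYS values, whereas Csf3r had a mean of 166.5 CPM in LYS skin against 91.7 CPM in IMQ skin. The 6 fibroblast markers, all of which fell in the IMQ group, summed to 21499 to 27361, 3276 to 10535 and 9015 to 17416 CPM, and the 8 skeletal muscle markers, of which 6 fell, summed to 9798 to 10625, 1820.2 to 4819.9 and 4530.2 to 8894 CPM. Hair follicle markers summed to 1769 to 3719.6 CPM in the control group and 10.2 to 18.2 CPM in the IMQ group, where Krt35 was at 0. In such bulk samples, fewer cells of a type and less RNA per cell cannot be told apart, and the part of these lists in the results below was not tested.

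Some members of the cascade were also measured by qPCR, and the primers show which genes those assays could read. Each primer was matched exactly to the transcripts of GENCODE M21, and mismatched binding was not assessed. The pair named MEK3,6 matched Map2k3 with a product of 93 bases and did not match Map2k6. The pair named p38 matched Mapk14 with a product of 163 bases and no other p38 gene. The sequences are printed so that each assay can be set beside the library values of its gene.
MEK3,6 (Map2k3) forward: actatcggagacagaaacttcg
MEK3,6 (Map2k3) reverse: cactttctctaccaccccatag
p38 (Mapk14) forward: aggaattcaatgacgtgtacct
p38 (Mapk14) reverse: aggtccctgtgaattatgtcag

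Promoter windows from RefSeq (GRCm38.p6, 250 bases before to 50 after a start) were found for 55 of the 70 members, with 71 windows in all. Both strands were searched for the AP-1 motif TGACTCA, the cyclic AMP response element (CRE) TGACGTCA, the GC box GGGCGG and the CArG box, the element bound by serum response factor. The CArG box was in 1.63% of 32851 windows of all genes, and among the members only the Dusp5 window held it, in a stretch where matches start 82 and 72 bases before the start. The CRE was in 1.79% of all windows and in those of Dusp1, Dusp8 and Mapk10. The AP-1 motif was in 5.2% of all windows and in those of Dusp13 and Map3k10. The GC box was in 42 of the 71 member windows and in 35.7% of all windows. A match is a description of letters, not a bound site. The windows of 3 phosphatase genes that went different ways in the IMQ group are shown, with the CArG and CRE letters in capitals.
Dusp5, chr19:53528895-53529194, + strand: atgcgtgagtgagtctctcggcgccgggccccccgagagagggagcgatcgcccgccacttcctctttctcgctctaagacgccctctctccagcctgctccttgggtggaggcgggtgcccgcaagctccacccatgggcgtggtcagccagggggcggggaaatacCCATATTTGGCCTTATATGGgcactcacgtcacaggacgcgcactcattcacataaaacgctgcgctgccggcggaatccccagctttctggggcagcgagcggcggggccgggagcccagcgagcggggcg
Dusp1, chr17:26508423-26508722, minus strand: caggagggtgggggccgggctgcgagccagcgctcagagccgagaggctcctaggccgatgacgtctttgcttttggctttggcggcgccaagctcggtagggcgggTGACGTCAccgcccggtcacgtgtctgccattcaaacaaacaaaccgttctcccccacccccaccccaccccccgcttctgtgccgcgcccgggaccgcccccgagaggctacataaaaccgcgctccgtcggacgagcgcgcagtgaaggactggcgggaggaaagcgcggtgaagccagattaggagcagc
Dusp8, chr7:142095235-142095534, minus strand: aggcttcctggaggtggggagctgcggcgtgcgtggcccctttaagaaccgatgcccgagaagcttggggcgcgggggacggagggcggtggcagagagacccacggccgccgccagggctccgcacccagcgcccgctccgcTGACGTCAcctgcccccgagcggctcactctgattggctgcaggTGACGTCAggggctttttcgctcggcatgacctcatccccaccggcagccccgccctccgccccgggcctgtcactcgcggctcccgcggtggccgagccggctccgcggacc

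In the IMQ group, 6 of 8 members of the p38 branch rose, as did the ERK kinase Mapk3 and its activators. The JNK activator Map2k4 and the phosphatases Dusp5, Dusp14, Dusp7 and Dusp22 rose too. The p38 branch members Mapk12 and Map2k6, the JNK kinases Mapk8 and Mapk9 and the phosphatases Dusp10, Dusp4 and Dusp6 fell. A gene was called at an edgeR adjusted p under 0.05 (quasi-likelihood test, Benjamini-Hochberg over all tested genes) and an absolute log2 fold change over 0.58. Of the 66 members with enough counts to test, 27 (40.9%) rose and 16 (24.2%) fell, beside 24.1% and 26.9% of all 15976 tested genes. The share that rose lay above that of all genes and the share that fell lay close to it. The median log2 fold change was 0.25 over the tested members and -0.06 over all tested genes. With scaling by library totals alone the split was 19 higher and 21 lower, because that scaling shifts the median of all genes to -0.51. The 8 calls lost there were Dusp11, Map2k2, Map3k11, Map4k4, Mapk7, Mapk11, Mapkapk2 and Mapkapk5, and no called member changed sign. Mapk10, Mapk15, Map3k19 and Map3k21 were left out of this fit by its filter on low counts, and none of the 4 was called by DESeq2 or by edgeR without the filter. Mapk10, the neuronal JNK, had 4, 10 and 5 counts in the control libraries and at most 2 in any IMQ library.

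**Figure D1:**
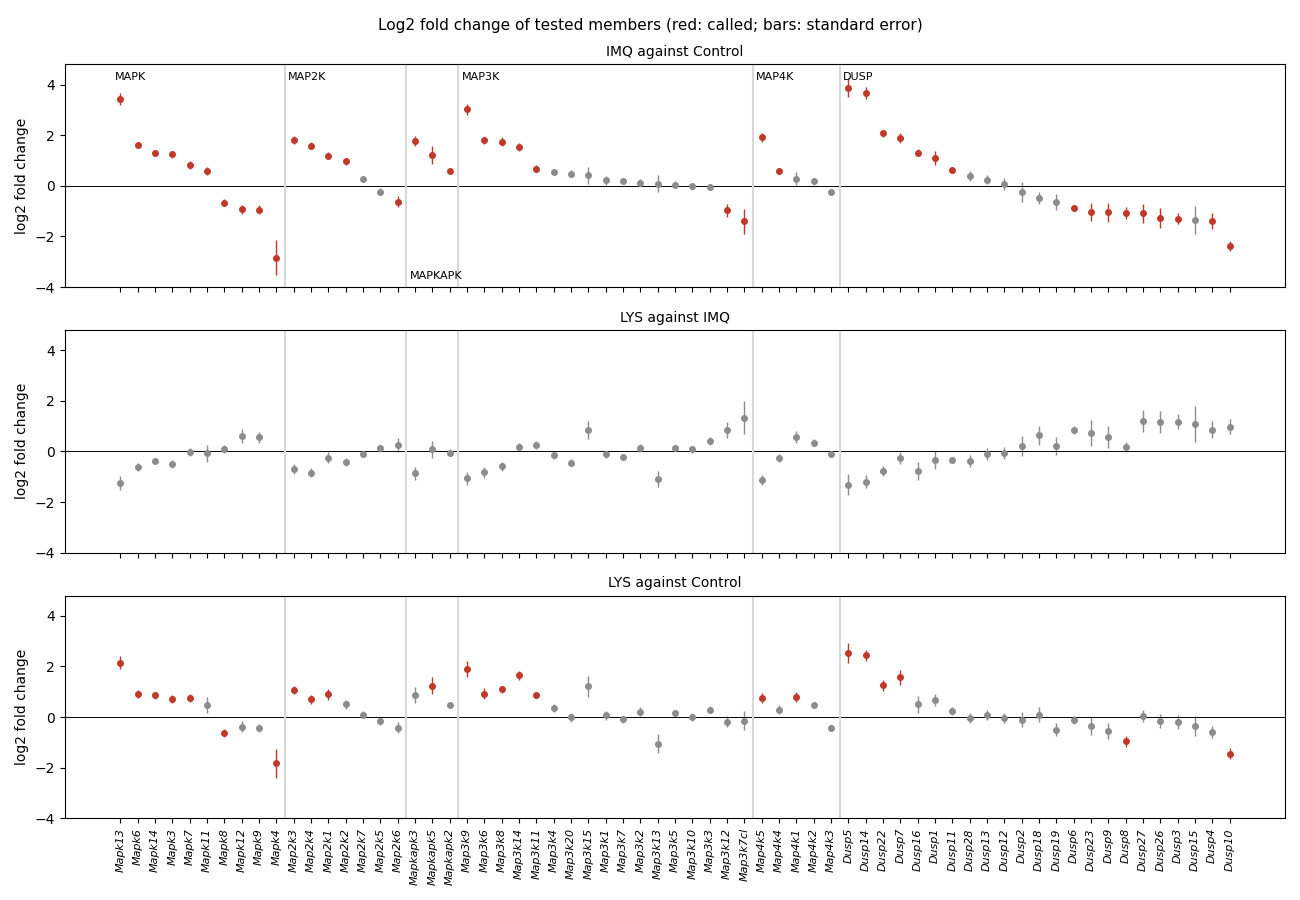
Log2 fold change (vertical axis) of tested members (horizontal axis, grouped by class) in each of the 3 comparisons, with bars of 1 standard error and called members in red. Dusp5 at 3.88, Dusp14 at 3.68 and Mapk13 at 3.43 are the highest points of the comparison of IMQ with the control group, and no point is red in the comparison of LYS with IMQ.

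In the ERK branch, Mapk3 and both activating kinases rose in the IMQ group. Mapk3 (ERK1; ENSMUSG00000063065, chr7:126759601-126765819, + strand, GRCm38) had 144, 148 and 134 CPM in the control libraries, 288, 365 and 365 CPM in the IMQ libraries and 277, 208 and 206 CPM in the LYS libraries. Its IMQ libraries all lay above the control libraries (log2 fold change 1.25 ± 0.14 SE, edgeR adjusted p = 1.67e-04), and so did its LYS libraries.

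Map2k1 (MEK1) phosphorylates ERK kinases and had 59.4, 62.98 and 56.4 CPM in the control libraries, 112, 159 and 139.5 CPM in the IMQ libraries and 143, 107 and 80.7 CPM in the LYS libraries. Its level rose in the IMQ group (log2 fold change 1.19 ± 0.14 SE, edgeR adjusted p = 2.40e-04), and LYS 1 lay within the IMQ range. Map2k2 (MEK2), which does the same work, had 97.4, 117 and 113 CPM in the control libraries, 187, 224 and 239 CPM in the IMQ libraries and 189.9, 134 and 139.8 CPM in the LYS libraries. It rose as well (log2 fold change 0.98 ± 0.14 SE, edgeR adjusted p = 5.82e-04), but not with library totals alone.

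The p38 branch was called in all 8 of its members in the IMQ group, 6 higher and 2 lower, beside 24.1% and 26.9% of all tested genes. Mapk13 (p38 delta, the p38 kinase known from epidermis; ENSMUSG00000004864, chr17:28769297-28780233, + strand) had 49.2, 38.95 and 56.6 CPM in the control libraries, 364, 569 and 634 CPM in the IMQ libraries and 282, 202 and 152 CPM in the LYS libraries. Neither the control nor the LYS libraries reached the lowest IMQ library, and the edgeR fit gave a 10.8-fold higher level than in the control group (log2 fold change 3.43 ± 0.25 SE, edgeR adjusted p = 3.18e-05). The summed suprabasal keratinocyte markers also had no overlap between the control and IMQ groups, and their part in the rise of Mapk13 was not tested. Mapk14 (p38 alpha; ENSMUSG00000053436, chr17:28691329-28748406, + strand), the widely expressed form and the gene the p38 primers match, had 108, 112 and 111 CPM in the control libraries, 244, 295 and 269.6 CPM in the IMQ libraries and 210.2, 204 and 183 CPM in the LYS libraries. The 3 groups did not overlap, with LYS between the others (log2 fold change 1.28 ± 0.12 SE, edgeR adjusted p = 7.56e-05 for IMQ against control).

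The remaining p38 kinases were less abundant and went different ways. Mapk11 (p38 beta) had 8.70, 9.61 and 9.25 CPM in the control libraries, 11.2, 15.9 and 14.6 CPM in the IMQ libraries and 18.98, 11.5 and 7.63 CPM in the LYS libraries. Its call (log2 fold change 0.59 ± 0.18 SE, edgeR adjusted p = 0.0196) was lost without Control 1, IMQ 2 or IMQ 3, with library totals alone and in the fit of all 9 libraries. Mapk12 (p38 gamma), known for its high level in skeletal muscle, had 27.2, 30.8 and 28.2 CPM in the control libraries, 17.9, 16.6 and 11.2 CPM in the IMQ libraries and 16.1, 21.8 and 28.3 CPM in the LYS libraries. It fell (log2 fold change -0.92 ± 0.18 SE, edgeR adjusted p = 0.00318), and the skeletal muscle markers fell from 9798 to 10625 to 1820.2 to 4819.9 summed CPM in the same libraries, a link that was not tested. IMQ 3 was the lowest library for both. Of the 8 muscle markers, Myh1 and Ttn were not called, and Ttn had a log2 fold change of 0.66 ± 0.45 (SE). Of the summed FPKM of the 4 p38 kinases, Mapk13 held 29.8% ± 4.23 in control skin, 69.5% ± 5.07 in IMQ skin and 53.9% ± 6.13 in LYS skin (SD, n = 3), while Mapk14 held 49.3% ± 2.38, 26.6% ± 4.16 and 37.6% ± 4.79. Mapk14 was thus the leading p38 transcript in the control group and Mapk13 in the others.

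Map2k3 (MKK3; ENSMUSG00000018932, chr11:60932033-60952811, + strand) activates p38 kinases and is the gene the MEK3,6 primers match. It had 83.04, 90.7 and 95.5 CPM in the control libraries, 248, 355 and 346 CPM in the IMQ libraries and 218, 193 and 154 CPM in the LYS libraries. The 3 groups did not overlap, and the rise in the IMQ group (log2 fold change 1.81 ± 0.17 SE, edgeR adjusted p = 7.28e-05) was the largest of the 7 Map2k genes in this fit. Map2k6 (MKK6), its partner, had 8.55, 8.46 and 8.72 CPM in the control libraries, 7.23, 4.91 and 4.54 CPM in the IMQ libraries and 7.40, 4.75 and 6.99 CPM in the LYS libraries. Its fall (log2 fold change -0.62 ± 0.22 SE, edgeR adjusted p = 0.0401) held only without IMQ 1 among the fits that left out a library. Map2k3 held 91.6% ± 0.503 of the FPKM of this pair in the control group and 98.2% ± 0.839 in the IMQ group (SD, n = 3).

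Both kinases directly below p38 rose. Mapkapk3 (MK3) had 56.3, 53.3 and 86.8 CPM in the control libraries, 215, 228 and 230.2 CPM in the IMQ libraries and 173, 106 and 77.9 CPM in the LYS libraries. Its IMQ libraries stood apart from all others (log2 fold change 1.77 ± 0.20 SE, edgeR adjusted p = 1.90e-04), while LYS 3 lay within the control range. Mapkapk2 (MK2), which carries p38 signals to the mRNAs of inflammatory cytokines, had 176, 169.8 and 177 CPM in the control libraries, 235, 279 and 275 CPM in the IMQ libraries and 249.6, 251 and 229 CPM in the LYS libraries. Its log2 fold change of 0.58 ± 0.12 (SE, edgeR adjusted p = 0.00354) stood just over the threshold, and the call was lost without Control 1, Control 2, IMQ 2 or IMQ 3 and with library totals alone.

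**Figure D2:**
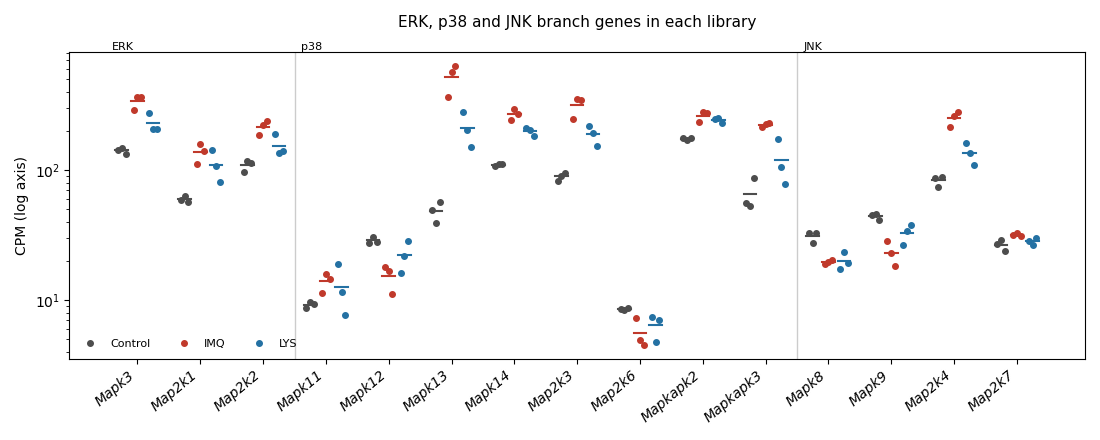
CPM (log axis) of the ERK, p38 and JNK branch genes in each library, with a dot per library, a line at the mean and the groups in colour. Mapk13 lies between 38.95 and 56.6 CPM in the control libraries and between 364 and 634 CPM in the IMQ libraries, whereas Mapk8 and Mapk9 are lower in every IMQ library than in any control library.

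The JNK branch split by level: both JNK kinases that could be tested fell and an activating kinase rose. Mapk8 (JNK1) had 32.8, 27.5 and 32.6 CPM in the control libraries, 18.9, 19.5 and 20.4 CPM in the IMQ libraries and 17.2, 23.3 and 19.4 CPM in the LYS libraries. The IMQ and LYS libraries overlapped each other and lay below the control libraries (log2 fold change -0.67 ± 0.13 SE, edgeR adjusted p = 0.00245). Mapk9 (JNK2; ENSMUSG00000020366, chr11:49846751-49886421, + strand) had 45.5, 46.1 and 41.3 CPM in the control libraries, 28.4, 22.9 and 18.3 CPM in the IMQ libraries and 26.3, 34.2 and 37.6 CPM in the LYS libraries. It fell in the IMQ group (log2 fold change -0.94 ± 0.17 SE, edgeR adjusted p = 0.00185), with LYS 1 within the IMQ range. Endothelial markers summed to 412 to 576 CPM in the control libraries, 172 to 380.4 CPM in the IMQ libraries and 341 to 724 CPM in the LYS libraries. Fibroblast and muscle sums were also lower in the IMQ libraries than in the control libraries. The part of these markers was not tested.

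Map2k4 (MKK4; ENSMUSG00000033352, chr11:65688243-65788297, minus strand), which phosphorylates JNK and can also act on p38, had 87.7, 74.5 and 88.8 CPM in the control libraries, 217, 261 and 279 CPM in the IMQ libraries and 163, 135 and 109 CPM in the LYS libraries. No groups overlapped, and Map2k4 rose in the IMQ group (log2 fold change 1.58 ± 0.14 SE, edgeR adjusted p = 6.69e-05). Map2k7 (MKK7), specific for JNK, had 26.95, 28.8 and 24.1 CPM in the control libraries, 31.8, 32.9 and 30.98 CPM in the IMQ libraries and 28.5, 26.6 and 29.8 CPM in the LYS libraries. Its IMQ libraries lay above the control libraries by a small margin that was not called (log2 fold change 0.25 ± 0.12 SE, edgeR adjusted p = 0.0939), and its sign turned with library totals alone.

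Within a library, shares of FPKM do not depend on scaling, so the 7 p38 and JNK kinases were set against their own sum. The p38 kinases took 84.1%, 84.2% and 85.8% of it in the control libraries, 96.9%, 98.1% and 98.4% in the IMQ libraries and 96.5%, 94.5% and 93.2% in the LYS libraries. JNK kinases took the rest, 15.3% ± 0.944, 2.24% ± 0.802 and 5.27% ± 1.65 (SD, n = 3) in the control, IMQ and LYS groups. Among these transcripts the p38 share was higher and the JNK share was lower in every IMQ library than in any control library, and the LYS libraries lay between the other groups. The LYS 1 share of JNK kinases, at 3.50%, was close to the highest IMQ library at 3.15%. These shares are given as a description, with no test.

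**Figure D3:**
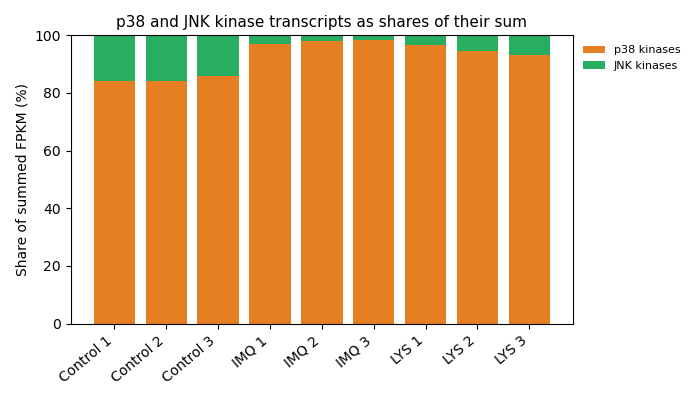
Share (%) of the summed FPKM of the 7 p38 and JNK kinases held by each branch, with a stacked bar per library. The p38 part is 84.1% to 85.8% in the control libraries and 96.9% to 98.4% in the IMQ libraries.

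Among the kinases outside these branches, Mapk6 (ERK3), an atypical MAP kinase with a single phosphorylation site in its loop, had 140.3, 148 and 141 CPM in the control libraries, 403, 456 and 452 CPM in the IMQ libraries and 299, 289.5 and 224 CPM in the LYS libraries. The 3 groups did not overlap (log2 fold change 1.60 ± 0.12 SE, edgeR adjusted p = 3.64e-05 for IMQ against control). Mapk4 (ERK4), its close relative, was rare, with 1.26, 1.11 and 1.70 CPM in the control libraries, 0.121, 0.447 and 0 CPM in the IMQ libraries and 0.0698, 0.396 and 0.631 CPM in the LYS libraries. It fell in the IMQ group (log2 fold change -2.84 ± 0.70 SE, edgeR adjusted p = 0.00847), where the libraries held 2, 6 and 0 counts. Mapkapk5 (MK5), a partner of ERK3 and ERK4, had 0.628, 0.832 and 0.584 CPM in the control libraries, 1.34, 1.41 and 2.05 CPM in the IMQ libraries and 1.95, 1.24 and 1.66 CPM in the LYS libraries. Its rise (log2 fold change 1.21 ± 0.35 SE, edgeR adjusted p = 0.0175) was lost without Control 1, Control 3 or IMQ 3. Mapk7 (ERK5), whose locus overlaps the expressed gene Mfap4, had 15.99, 14.5 and 18.1 CPM in the control libraries, 25.7, 29.6 and 31.6 CPM in the IMQ libraries and 24.8, 31.4 and 24.9 CPM in the LYS libraries and rose (log2 fold change 0.83 ± 0.15 SE, edgeR adjusted p = 0.00164). Map2k5, the activator of ERK5, ran from 16.9 to 22.2 CPM in the control libraries and from 15.9 to 18.5 CPM in the IMQ libraries and was not called (log2 fold change -0.23 ± 0.15 SE, edgeR adjusted p = 0.227).

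Of 17 tested MAP3K genes, 5 rose and 2 fell in the IMQ group, and 10 were not called. Of all tested genes, 24.1% rose and 26.9% fell, and the MAP3K counts are not read as particular to the class. Map3k9 (MLK1), a mixed lineage kinase upstream of JNK (ENSMUSG00000042724, chr12:81721010-81781175, minus strand), had 10.05, 8.32 and 14.2 CPM in the control libraries, 74.1, 105 and 86.6 CPM in the IMQ libraries and 52.1, 43.5 and 25.7 CPM in the LYS libraries. Its groups did not overlap, and the rise was 8.09-fold (log2 fold change 3.02 ± 0.22 SE, edgeR adjusted p = 3.30e-05). Map3k6 (ASK2), a stress-responsive kinase, had 36.8, 42.001 and 48.1 CPM in the control libraries, 126, 160.1 and 157 CPM in the IMQ libraries and 102, 81.02 and 56.8 CPM in the LYS libraries and rose (log2 fold change 1.79 ± 0.15 SE, edgeR adjusted p = 4.91e-05), with LYS between the other groups.

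Map3k8 (Tpl2, also called Cot), which links Toll-like receptor signals to Map2k1, had 17.6, 16.4 and 19.8 CPM in the control libraries, 46.7, 60.3 and 74.1 CPM in the IMQ libraries and 34.6, 41.1 and 39.04 CPM in the LYS libraries. It rose in the IMQ group (log2 fold change 1.74 ± 0.18 SE, edgeR adjusted p = 1.37e-04), and the LYS libraries stayed above the control libraries. Map3k14 (NIK), the kinase of non-canonical NF-kappa B signalling, had 6.62, 6.15 and 6.82 CPM in the control libraries, 19.4, 16.9 and 20.9 CPM in the IMQ libraries and 23.9, 20.001 and 17.5 CPM in the LYS libraries. It rose (log2 fold change 1.54 ± 0.16 SE, edgeR adjusted p = 1.31e-04), and IMQ and LYS libraries overlapped. Map3k7cl, a short relative of Map3k7 without a kinase domain, was rare, with 2.56, 3.14 and 3.51 CPM in the control libraries, 2.06, 0.968 and 0.366 CPM in the IMQ libraries and 1.47, 2.60 and 4.24 CPM in the LYS libraries. Its fall (log2 fold change -1.41 ± 0.50 SE, edgeR adjusted p = 0.0400) held only without IMQ 1 among the fits that left out a library and was lost in the fit of all 9 libraries.

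The widely used MAP3K genes gave small values. Map3k7 (TAK1), central to interleukin-1 and Toll-like receptor signalling, had 0.18 on the log2 scale (standard error 0.10), and Map3k1, Map3k2, Map3k3, Map3k5 and Map3k10 lay between -0.06 and 0.22. Map3k4 at 0.56 and Map3k20 at 0.48 passed the adjusted p but not the fold threshold. Map3k11 at 0.68 rose, a call lost without IMQ 2, and Map3k12 at -0.97 fell. The Map3k11 and Map3k12 loci overlap the expressed genes Pcnx3 and Pcbp2, and the strand setting of the counting is not stated.

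In the MAP4K class, 2 of 5 genes rose and none fell, beside 24.1% and 26.9% of all tested genes. Map4k5 (ENSMUSG00000034761, chr12:69803750-69893200, minus strand), a germinal centre kinase whose locus overlaps Atl1, had 43.04, 35.6 and 46.5 CPM in the control libraries, 128, 180.3 and 167 CPM in the IMQ libraries and 87.8, 65.5 and 56.9 CPM in the LYS libraries. No groups overlapped (log2 fold change 1.92 ± 0.16 SE, edgeR adjusted p = 5.46e-05). Map4k4, a kinase upstream of JNK, had 219.6, 218 and 223 CPM in the control libraries, 304, 359.7 and 336 CPM in the IMQ libraries and 315, 274 and 219 CPM in the LYS libraries. Its rise (log2 fold change 0.59 ± 0.12 SE, edgeR adjusted p = 0.00343) was lost without Control 1, Control 2 or IMQ 2 and with library totals alone. Map4k1 (HPK1), known from blood cells, had 0.28 on the log2 scale (standard error 0.25) and was not called.

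**Figure D4:**
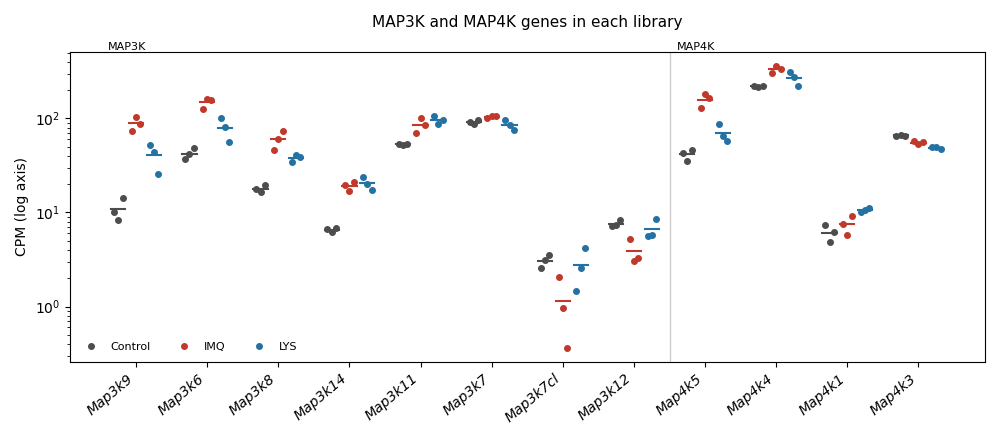
CPM (log axis) of 12 MAP3K and MAP4K genes in each library, with a dot per library and a line at the mean. Map3k9 lies between 8.32 and 14.2 CPM in the control libraries and between 74.1 and 104.5 CPM in the IMQ libraries, while Map3k7 stays between 74.8 and 105.5 CPM in all 9 libraries.

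The MAP kinase phosphatases split, with 4 of 10 higher, 5 lower and 1 not called in the IMQ group. The shares of all tested genes were 24.1% higher and 26.9% lower. Dusp5 (ENSMUSG00000034765, chr19:53529109-53542431, + strand), a nuclear phosphatase specific for ERK and the member with the CArG matches printed above, had 5.07, 6.01 and 9.06 CPM in the control libraries, 55.4, 118 and 127 CPM in the IMQ libraries and 59.5, 33.7 and 22.9 CPM in the LYS libraries. The lowest IMQ library was over the highest control library, the edgeR fit gave a 14.8-fold higher level than in the control group (log2 fold change 3.88 ± 0.36 SE, edgeR adjusted p = 8.00e-05), and LYS 1 lay within the IMQ range. Dusp7, a cytoplasmic ERK phosphatase, had 61.01, 58.3 and 90.7 CPM in the control libraries, 234, 283 and 262 CPM in the IMQ libraries and 289, 161 and 169 CPM in the LYS libraries. It rose (log2 fold change 1.88 ± 0.19 SE, edgeR adjusted p = 1.28e-04), and the highest value was that of LYS 1.

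Dusp16 (MKP-7), which acts on JNK and p38, had 42.4, 42.2 and 48.03 CPM in the control libraries, 87.8, 126 and 118 CPM in the IMQ libraries and 99.4, 50.4 and 36.2 CPM in the LYS libraries. Its IMQ libraries lay above all control libraries (log2 fold change 1.31 ± 0.15 SE, edgeR adjusted p = 2.15e-04), and the LYS libraries spread from below the control range into the IMQ range. Dusp1 (MKP-1), an immediate early phosphatase of p38 and JNK with a CRE in its window, had 118, 104 and 93.1 CPM in the control libraries, 128, 299 and 247 CPM in the IMQ libraries and 199, 108 and 197 CPM in the LYS libraries. It rose (log2 fold change 1.09 ± 0.28 SE, edgeR adjusted p = 0.00951), although IMQ 1 lay close to the control libraries, and its locus overlaps Ergic1.

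Dusp10 (MKP-5), which acts on p38 and JNK, fell most among the phosphatases (ENSMUSG00000039384, chr1:184013302-184075636, + strand, overlapping 1700056E22Rik). It had 17.3, 16.9 and 17.3 CPM in the control libraries, 4.01, 3.13 and 2.78 CPM in the IMQ libraries and 4.67, 5.82 and 8.20 CPM in the LYS libraries. The highest IMQ library, at 4.01 CPM, lay far below the lowest control library, at 16.9 CPM (log2 fold change -2.37 ± 0.19 SE, edgeR adjusted p = 4.29e-05). Dusp4 (MKP-2), a nuclear phosphatase, had 10.4, 17.4 and 12.3 CPM in the control libraries, 6.44, 5.96 and 2.86 CPM in the IMQ libraries and 7.33, 11.2 and 7.91 CPM in the LYS libraries and fell (log2 fold change -1.40 ± 0.33 SE, edgeR adjusted p = 0.00664).

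Dusp6 (MKP-3; ENSMUSG00000019960, chr10:99263231-99267489, + strand), the cytoplasmic ERK phosphatase induced by ERK signalling, had 57.6, 56.4 and 70.8 CPM in the control libraries, 32.4, 34.8 and 33.8 CPM in the IMQ libraries and 45.8, 63.5 and 61.9 CPM in the LYS libraries. The IMQ libraries lay close together and below all others (log2 fold change -0.88 ± 0.13 SE, edgeR adjusted p = 6.15e-04), whereas LYS and control libraries overlapped. Dusp8, a JNK and p38 phosphatase with CRE letters at 2 places in its window, had 17.004, 16.2 and 25.8 CPM in the control libraries, 8.14, 9.98 and 10.2 CPM in the IMQ libraries and 9.84, 9.15 and 11.4 CPM in the LYS libraries. IMQ and LYS libraries overlapped, both below the control range (log2 fold change -1.07 ± 0.22 SE, edgeR adjusted p = 0.00364).

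Dusp9 (MKP-4) was rare, with 1.88, 1.76 and 1.56 CPM in the control libraries, 1.21, 0.521 and 0.732 CPM in the IMQ libraries and 1.54, 0.961 and 1.09 CPM in the LYS libraries, and its fall (log2 fold change -1.05 ± 0.38 SE, edgeR adjusted p = 0.0407) held only without IMQ 1 among the fits that left out a library and was not called by DESeq2 (adjusted p = 0.0677). Dusp2 (PAC-1), known from lymphocytes, had 6.96, 5.36 and 10.5 CPM in the control libraries, 3.22, 6.63 and 9.59 CPM in the IMQ libraries and 7.05, 5.54 and 8.66 CPM in the LYS libraries and overlapped between all groups (log2 fold change -0.25 ± 0.40 SE, edgeR adjusted p = 0.613). In the summed FPKM of the 10 MKP genes, Dusp5 held 2.70% ± 0.628 in control skin, 17.97% ± 3.75 in IMQ skin and 9.28% ± 2.96 in LYS skin (SD, n = 3). Dusp6 held 19.7% ± 0.938, 5.09% ± 1.19 and 11.7% ± 4.24 in the same order. Dusp7 held 20.8% ± 3.52, 36.3% ± 6.33 and 36.7% ± 4.57, the highest mean of these 3 ERK phosphatases in each group. In the control group that order rested on Control 3, since Dusp6 was above Dusp7 in Control 1 (18.99% against 18.78%) and Control 2 (19.34% against 18.67%). Dusp5 was above Dusp6 in the IMQ group and below it in the control group.

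Among the 13 other Dusp genes, 3 rose, 4 fell and 6 were not called. With 24.1% of all tested genes higher and 26.9% lower, these counts are not read as particular to the class. Dusp14 (MKP-6; ENSMUSG00000018648, chr11:84048041-84069261, minus strand), a small phosphatase known as a brake on T cell receptor signalling, had 22.7, 21.9 and 27.2 CPM in the control libraries, 216, 338 and 372 CPM in the IMQ libraries and 167, 123 and 97.01 CPM in the LYS libraries. Its 3 groups did not overlap and the rise was 12.8-fold (log2 fold change 3.68 ± 0.23 SE, edgeR adjusted p = 1.79e-05). The 8 T cell markers summed to 14.1 to 19.2 CPM in the control group, 17.4 to 23.4 CPM in the IMQ group and 28.9 to 41.2 CPM in the LYS group. Between IMQ and control, 5 of them were called higher (Cd3d, Zap70, Cd3e, Cd3g and Trdc) and 2 lower (Cd2 and Lck), and their part was not tested. Dusp22 (JKAP), a small phosphatase tied to JNK signalling, had 40.3, 35.2 and 46.5 CPM in the control libraries, 156, 168 and 192 CPM in the IMQ libraries and 126, 88.2 and 76.6 CPM in the LYS libraries and rose (log2 fold change 2.07 ± 0.15 SE, edgeR adjusted p = 2.87e-05).

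Dusp3 (VHR), an ERK and JNK phosphatase without an MKP docking domain, had 49.5, 64.1 and 41.2 CPM in the control libraries, 26.2, 18.2 and 18.3 CPM in the IMQ libraries and 28.96, 47.3 and 58.6 CPM in the LYS libraries. It fell in the IMQ group (log2 fold change -1.30 ± 0.21 SE, edgeR adjusted p = 0.00113), and LYS 2 and LYS 3 lay within the control range. Dusp26 had 3.09, 3.23 and 2.29 CPM in the control libraries, 1.76, 1.19 and 0.586 CPM in the IMQ libraries and 2.02, 2.77 and 2.87 CPM in the LYS libraries and Dusp27, a muscle gene with an inactive phosphatase domain, had 7.15, 6.24 and 8.86 CPM in the control libraries, 5.71, 2.38 and 2.27 CPM in the IMQ libraries and 5.79, 7.68 and 9.52 CPM in the LYS libraries. Their falls, by 1.27 and 1.09 on the log2 scale (edgeR adjusted p = 0.0240 and 0.0344), came beside lower skeletal muscle markers, whose part was not tested. The Dusp26 call was lost without Control 1, Control 2, IMQ 2 or IMQ 3, and the Dusp27 call held only without IMQ 1. Dusp11, an RNA phosphatase, rose by 0.63 and Dusp23 fell by 1.03 on the log2 scale, the second a call that held only without IMQ 1 and was lost in the fit of all 9 libraries. The genes not called ran from -1.36 (Dusp15) to 0.39 (Dusp28).

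**Figure D5:**
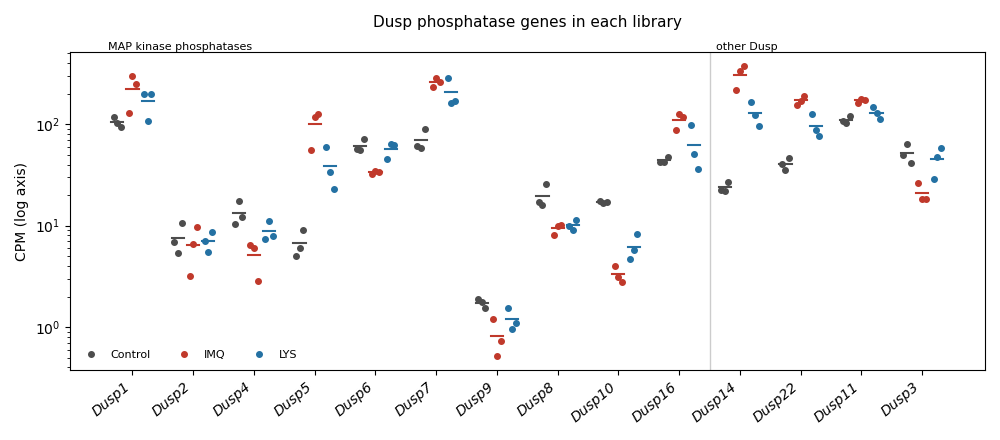
CPM (log axis) of 10 MKP genes and 4 other Dusp genes in each library, with a dot per library and a line at the mean. Dusp5 and Dusp14 are above every control library in all IMQ and LYS libraries, and Dusp10 and Dusp8 are below every control library in them.

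Next, the LYS group was compared with the IMQ group, which asks what the decoction changed on top of the cream. No member was called by edgeR, and none of the 15460 tested genes was (0%). At an unadjusted p under 0.05, 11 of 65 tested members (16.9%) were higher and 18 (27.7%) lower, beside 19.3% and 15.9% of all tested genes. The groups did not overlap for 11 members (16.9%) with higher LYS values and for 20 (30.8%) with lower ones, beside 16.8% and 22.1% of all genes. DESeq2 called 4 members higher and 13 lower, 6.15% and 20% of the members beside 13.3% and 9.49% of all genes. An edgeR fit of all 9 libraries called 3 higher and 13 lower of 66 members, 4.55% and 19.7% beside 9.93% and 8.62% of all genes. All 16 members called by the fit of 9 libraries were among the 17 called by DESeq2.

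The lower LYS values lay in genes of several levels of the cascade. Map4k5 had the smallest p of the members, with a log2 value of -1.11 ± 0.19 (SE, edgeR adjusted p = 0.0591), and its lowest IMQ library had 128 CPM against 87.8 CPM in the highest LYS library. Map2k4 had -0.83 ± 0.17 (SE, edgeR adjusted p = 0.0591), Mapk13 had -1.24 ± 0.28 (SE, edgeR adjusted p = 0.0591) and Dusp14 had -1.20 ± 0.26 (SE, edgeR adjusted p = 0.0591), each with no overlap of libraries. For Dusp5 the log2 fold change was -1.31 ± 0.41 (SE, edgeR adjusted p = 0.0804), with LYS 1 above IMQ 1. Map3k9 at -1.07, Mapkapk3 at -0.86, Map3k6 at -0.83, Dusp22 at -0.77, Map2k3 at -0.69 and Mapk6 at -0.63 on the log2 scale had adjusted p between 0.0598 and 0.0777. Suprabasal keratinocyte markers also gave lower sums, 9635 to 20102 CPM against 29287 to 52198 CPM, and their part was not tested.

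Of the 23 Dusp genes, 6 (26.1%) had higher and 4 (17.4%) had lower LYS values at an unadjusted p under 0.05, beside 19.3% and 15.9% of all tested genes. Dusp6 had a log2 fold change of 0.83 ± 0.16 (SE, edgeR adjusted p = 0.0591), and all its LYS libraries exceeded all IMQ libraries. Dusp3 had 1.17 ± 0.29 (SE, edgeR adjusted p = 0.0610), Dusp10 had 0.98 ± 0.31 (SE, edgeR adjusted p = 0.0793) and Dusp4 had 0.86 ± 0.35 (SE, edgeR adjusted p = 0.1297), with no overlap in any of the 3. Both comparisons share the IMQ libraries, so these values and those against the control group are not independent. Fibroblast markers were at 9015 to 17416 summed CPM in the LYS group against 3276 to 10535 in the IMQ group, which was not tested as a link.

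Both genes whose qPCR primers are printed above were lower in every LYS library than in any IMQ library, and edgeR called neither. Mapk14 had a log2 fold change of -0.37 ± 0.13 (SE, edgeR adjusted p = 0.0935) between LYS and IMQ and Map2k3 had -0.69 ± 0.19 (SE, edgeR adjusted p = 0.0676). In the JNK kinases the log2 fold change was 0.56 ± 0.22 (SE, edgeR adjusted p = 0.118) for Mapk9 and 0.09 ± 0.16 (SE, edgeR adjusted p = 0.695) for Mapk8, with overlapping libraries in both.

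The result depended on single libraries. Without LYS 1, edgeR called 19 members, 5 higher and 14 lower. Without IMQ 1 it called 11, 3 higher and 8 lower, while leaving out any other library gave 0. The shares of all genes called in these fits are not given here, so the counts are not read as particular to the members. Dusp3, Dusp5, Dusp6, Dusp14, Map2k3, Map2k4, Map3k9, Map4k5 and Mapk13 were called without LYS 1, without IMQ 1, by DESeq2 and by the fit of 9 libraries, 9 members in all. For 32 of the 43 members called between IMQ and control, LYS 1 was the LYS library nearest to the IMQ mean on the log2(CPM + 1) scale, against 9 for LYS 2 and 2 for LYS 3. The same count over all genes is not given here, so the nearness of LYS 1 is not read as particular to the members.

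Finally, the LYS group was compared with the control group. Of 66 tested members, 20 (30.3%) were called higher and 4 (6.06%) lower, beside 15.1% and 12.9% of all 16003 tested genes. In the p38 branch, 3 of 8 members were higher, Mapk13 at a log2 fold change of 2.14 ± 0.26 (SE, edgeR adjusted p = 0.00163), Map2k3 at 1.08 ± 0.17 (SE, edgeR adjusted p = 0.00382) and Mapk14 at 0.85 ± 0.13 (SE, edgeR adjusted p = 0.00318). In the ERK branch Mapk3 at 0.70 ± 0.16 (SE, edgeR adjusted p = 0.0165) and Map2k1 at 0.89 ± 0.21 (SE, edgeR adjusted p = 0.0174) were higher. Both calls were lost without Control 1 or Control 3, the Mapk3 call also without LYS 1 and the Map2k1 call also without LYS 2. In the JNK branch Map2k4 was higher at 0.70 ± 0.18 (SE, edgeR adjusted p = 0.0213), a call that held only without LYS 3, and Mapk8 was lower at -0.63 ± 0.16 (SE, edgeR adjusted p = 0.0223), a call lost without Control 1, Control 3 or LYS 1. Outside these branches Mapk6 at 0.93, Mapk7 at 0.74 and Mapkapk5 at 1.24 on the log2 scale were higher and Mapk4 at -1.83 was lower. Of these, Mapk7 lost its call without Control 1, Control 2 or LYS 2, the Mapkapk5 call held only without LYS 2, and the Mapk4 call held only without LYS 1 or LYS 3 and was lost in the fit of all 9 libraries. With library totals alone the calls of Mapk3, Map2k4 and Map4k1 were lost.

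Upstream, 7 of 22 tested MAP3K and MAP4K genes were higher and none lower, beside 15.1% and 12.9% of all tested genes. Map3k9 at 1.91 ± 0.31 (SE, edgeR adjusted p = 0.00441) and Map3k14 at 1.65 ± 0.18 (SE, edgeR adjusted p = 0.00109) led them, followed by Map3k8, Map3k6, Map3k11, Map4k1 and Map4k5. The Map3k6 call was lost without Control 1, Control 2 or LYS 2, and the Map4k5 call was lost without each of these and without LYS 1. Map4k1, not called in the IMQ group, was higher here, with 7.34, 4.85 and 6.19 CPM in the control libraries and 10.2, 10.5 and 11.2 CPM in the LYS libraries (log2 fold change 0.80 ± 0.20 SE, edgeR adjusted p = 0.0214), a call lost without Control 2, Control 3 or LYS 2. T cell markers summed to 14.1 to 19.2 CPM in the control group and 28.9 to 41.2 CPM in the LYS group, and their part was not tested. Among the phosphatases Dusp5 at 2.53 ± 0.39 (SE, edgeR adjusted p = 0.00372), Dusp14 at 2.44 ± 0.23 (SE, edgeR adjusted p = 6.11e-04), Dusp7 at 1.57 ± 0.29 (SE, edgeR adjusted p = 0.00661) and Dusp22 at 1.26 ± 0.22 (SE, edgeR adjusted p = 0.00525) were higher. Dusp10 at -1.46 ± 0.22 (SE, edgeR adjusted p = 0.00337) and Dusp8 at -0.95 ± 0.22 (SE, edgeR adjusted p = 0.0159) were lower, the latter a call lost without LYS 2, and Dusp6 gave -0.11 ± 0.16 (SE, edgeR adjusted p = 0.651) with overlapping libraries.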

How the data were processed

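Gene counts and FPKM of 9 libraries were used. The authors deposited raw counts per Ensembl gene and the FPKM made from them, and the gene length implied by the deposited FPKM was equal across libraries within 1% for 100% of 13551 genes. The submitters' processing notes name HISAT2, HTSeq 0.13.5 and GRCm38 without their roles. The strand setting of the counting is not given in the sources used here. Every value column was matched to a sample. FPKM were not rescaled and are used only for shares within a library and for levels between genes.

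Counts were scaled by TMM, filtered with filterByExpr and tested with edgeR 4.0.16 (quasi-likelihood test, R 4.3.3, Benjamini-Hochberg over all tested genes), in fits of 6 libraries without covariates, after testing on simulated data. The call thresholds, 0.05 on the adjusted p and 0.58 on the absolute log2 fold change, follow the study's methods. Alternatives were DESeq2 1.42.0, its size factors in edgeR, library totals alone, no filter, all 9 libraries, the replicate block, other thresholds and leaving out each library. No 2 libraries of a group were repeat sequencing of the same library, since their chi-square was 18.4 to 109.5 per degree of freedom. That value cannot show whether they came from different mice.

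The members and lists were chosen with earlier results of these data known. Values in every library are given for the ERK, p38 and JNK branches, the MKP genes, and up to 5 members of each other class with the largest called change between IMQ and control, plus the 3 with the smallest p between LYS and IMQ. A member is counted in the totals and not reported here. For each pathway list, up to 3 called genes with the largest change are named. Map4k1, Map2k5 and the other members given by a fold alone stand outside this rule and were chosen after their values were seen. Coordinates are from GENCODE M21 (GRCm38), which held 70 of 70 members, and promoters from the RefSeq table (GRCm38.p6), which held 55. Python 3.11.15 with matplotlib 3.10.9 made the plots.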

Additional observations from a re-analysis of the deposited data

How the results depend on the processing

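With 3 libraries a group, an exact permutation test of a single gene cannot go below 0.1, and rare members such as Mapk4, Dusp9 and Mapkapk5 rest on few counts. No called member changed sign under an alternative that was run. Between IMQ and control, 27 members rose and 16 fell. An absolute log2 fold change over 1 left 10 lower calls, and leaving out a library gave 23 to 28 higher and 10 to 18 lower calls, with 10 lower without Control 1, Control 2 or IMQ 3. Between LYS and IMQ, edgeR called 0, against 17 with DESeq2, 13 without a filter on low counts, 16 with all 9 libraries and 17 at an adjusted p under 0.1, and leaving out a library gave 0 to 19. Between LYS and control, 20 were higher and 4 lower. An absolute log2 fold change over 1 left 10 higher and 2 lower, and leaving out a library gave 13 to 21 higher and 2 to 5 lower, with 13 higher without Control 1 and 2 lower without Control 1, Control 3 or LYS 2. Leaving out a library also leaves fewer samples. The cause of the other differences was not tested.

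Libraries with the same number deviated together with correlations from -0.36 to 0.14, so the numbers were not taken to pair samples. The replicate block gave 25 higher and 15 lower calls between IMQ and control, 0 between LYS and IMQ, and 13 higher and 2 lower between LYS and control. It lost Dusp9, Mapk11 and Mapkapk2 in the first of these.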

Other observations

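The genes around the cascade were read from lists of the same pathway. Among 15 ERK feedback and response genes, 7 rose and 6 fell in the IMQ group, beside 24.1% and 26.9% of all tested genes. Ier3, an immediate early survival gene, went from 17.8 ± 4.50 to 347 ± 122 CPM (SD, n = 3; log2 fold change 4.27 ± 0.33 SE, edgeR adjusted p = 3.89e-05), and Fosl1, a part of AP-1, rose from 0.209 ± 0.104 to 1.48 ± 0.474 CPM (log2 fold change 2.79 ± 0.50 SE, edgeR adjusted p = 0.00180). Spry4, an inhibitor of receptor-driven ERK signalling, fell from 14.9 ± 1.66 to 2.22 ± 0.462 CPM (log2 fold change -2.74 ± 0.22 SE, edgeR adjusted p = 4.29e-05).

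Among 16 tested genes of Ras and Raf input, 3 rose and 4 fell, neither share above the 24.1% and 26.9% of all tested genes. The same shares of all genes stand beside the counts of the other lists below. Mras fell from 19.2 ± 0.626 to 4.38 ± 2.33 CPM (log2 fold change -2.13 ± 0.35 SE, edgeR adjusted p = 0.00126), and Rras (log2 fold change -1.41 ± 0.24 SE, edgeR adjusted p = 0.00138) and Nf1, a brake on Ras (log2 fold change -0.94 ± 0.16 SE, edgeR adjusted p = 0.00132), also fell. Of 15 tested scaffolds and adaptors, 6 rose and 1 fell, led by Gadd45g, a MAP3K4 activator, which fell from 73.8 ± 12.6 to 12.9 ± 2.75 CPM (log2 fold change -2.53 ± 0.20 SE, edgeR adjusted p = 3.89e-05), while its relative Gadd45b rose (log2 fold change 2.42 ± 0.32 SE, edgeR adjusted p = 4.10e-04) and so did Traf6. Of 8 MAPK-activated kinases outside the rule, 4 rose, among them Rps6ka4 (MSK2), from 50.3 ± 5.98 to 187 ± 33.4 CPM (log2 fold change 1.89 ± 0.16 SE, edgeR adjusted p = 5.20e-05), Rps6ka6 and Mknk2.

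Of 8 phosphatases outside the Dusp family, 3 rose and 1 fell, beside 24.1% and 26.9% of all tested genes. Ptpn5 (STEP), a tyrosine phosphatase of ERK and p38 known from neurons, went from 0.337 ± 0.151 CPM in the control group to 41.1 ± 10.6 CPM in the IMQ group and 14.3 ± 5.42 CPM in the LYS group (SD, n = 3; log2 fold change 6.90 ± 0.34 SE, edgeR adjusted p = 9.14e-06 for IMQ against control). Ppm1d rose and Ptprr fell. Of 6 other kinases at the MAP3K and MAP4K levels, 3 rose, Mos, Mink1 and Taok1. Mos was rare, with means of 0.126 CPM in the control group and 1.31 CPM in the IMQ group. Between LYS and IMQ, edgeR called 0 of all 15460 tested genes. DESeq2 called 1 to 4 genes in each of these lists, 16 over the 6 lists, beside 13.3% of all genes called higher and 9.49% lower. The edgeR fit of all 9 libraries called 2 to 4 in each and 19 in all, beside 9.93% and 8.62% of all genes. These list counts are not read as particular to the pathway.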
